A study of Mus musculus with 10 samples.

Results

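The 84 protein-coding genes for cytosolic ribosomal proteins were followed in cultured primary mouse microglia, the resident macrophages of the brain, after treatment with gapmers. They were chosen by their GENCODE M21 gene symbols, which begin with Rpl for the large (60S) subunit and Rps for the small (40S) subunit, together with Rplp0, Rplp1, Rplp2 and Rpsa, and with the Rps6k kinases left out. Of 55471 genes in the deposited tables, 52 large-subunit and 32 small-subunit genes met this rule. Fau and Rack1, for example, encode ribosomal components under other names and are therefore not members. Rps4l, the paralog of Rps4x, is listed in this annotation as a pseudogene and is not a member either.

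The libraries labelled knockdown came from wild-type (WT) primary microglia that received gapmers targeting 3222401L13Rik, a long noncoding RNA, and the control libraries from WT primary microglia that received control gapmers, with 5 libraries in each group. A gapmer is a short antisense oligonucleotide that directs RNase H to cut the RNA it binds. The age and sex of the mice, the gapmer dose and its duration were not given in the sources used here. Nor do they state that the replicates are separate cultures, so the p-values measure the spread between these libraries, which may be technical. Total RNA was made into libraries with a strand-marking kit for small inputs, and the tables hold whole-number read counts per gene.

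Most of these proteins are present once in each ribosome, where they surround the ribosomal RNA, and cells make them in matched amounts. Many of the mRNAs start with a run of pyrimidines, the 5′ terminal oligopyrimidine (TOP) motif, through which mTOR signalling and Larp1 control their translation. Mammalian genomes hold many processed pseudogenes of these genes, which are intron-free copies of their mRNAs, so that the coding sequence of a member can be nearly identical to other places in the genome.

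The targeted transcript was examined first as a check of the labels. 3222401L13Rik had 22, 38, 24, 33 and 29 reads in the libraries labelled knockdown (replicates 1 to 5), against 30, 29, 28, 33 and 34 reads in the control libraries. The groups overlapped, and the log2 fold change of -0.17 (SE 0.23) did not pass the test (edgeR quasi-likelihood test, adjusted p = 0.541). Background, defined in the next paragraph, predicted 48% of its reads. The lower level that the label names was not detectable at this depth, so the groups are called here by their labels.

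Totals were 5593627 to 6636082 reads in the knockdown-labelled libraries and 4321316 to 5639040 reads in the control libraries. The microglial label was met by 9 markers, all detected, whose summed level was 3280 to 3800 CPM (read counts scaled to a common library size) in the knockdown-labelled libraries and 2710 to 3210 CPM in the control libraries. The libraries also differed in background, measured over 1135 olfactory receptor genes, which microglia are not known to use. Their reads per kilobase of exon were divided by the library's total reads and are given as CPM per kilobase. Background was 0.257 ± 0.0674 CPM per kilobase in the knockdown-labelled libraries and 0.599 ± 0.147 in the control libraries (SD, n = 5 each), with no overlap. To predict the background reads of a gene, each library's undivided density in reads per kilobase was multiplied by the gene's exon length and summed over the libraries. The background share of a gene is the percentage of its reads that this predicts.

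Most member genes gave few reads, and a small number gave most of them. The 84 genes together held 0.387% ± 0.00432 of reads in the knockdown-labelled libraries and 0.370% ± 0.0127 in the control libraries (SD, n = 5 each). The share in the knockdown-labelled libraries was 0.3851%, 0.3922%, 0.3888%, 0.3806% and 0.3861%, against 0.3647%, 0.361%, 0.3805%, 0.3571% and 0.386% in the control libraries (replicates 1 to 5). Control replicate 5 lay within the knockdown-labelled range and control replicate 3 just under it, so the groups overlapped. Taken over the reads of genes with a background share under 5%, the members held 0.423% ± 0.00271 in the knockdown-labelled libraries and 0.421% ± 0.00911 in the control libraries, which differed by less than the spread between replicates.

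Levels are given per length, as TMM-scaled CPM (trimmed mean of M values) per kilobase of exon, averaged over the 10 libraries. Rplp1, one of the acidic proteins of the stalk that recruits elongation factors, stood highest at 862.7. Rpl8, a core large-subunit protein next to the peptidyl transferase centre, followed at 331.2, and Rpl4, which lines the exit tunnel, at 252.4. In all, 4 of 84 members were above 100 and 28 above 10, the median was 4.12 and 6 lay under 1. The highest level was 4521 times the lowest, that of Rpl23a at 0.1908.

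The order of levels was much the same in every library. Spearman's rho over the 84 members lay between 0.917 and 0.982 for the 45 pairs of libraries, a description across genes and not a test. In the knockdown-labelled libraries Rplp1 ranged from 938.5 to 1054 CPM per kilobase and in the control libraries from 674.1 to 840.7. Rpl8 ranged from 346.8 to 384.9 in the knockdown-labelled libraries and from 262.1 to 320.1 in the control libraries. Over all 10 libraries the range of Rplp1 did not reach that of Rpl8, and that of Rpl4 did not reach that of Rpl22. The ranges of Rpl8 and Rpl4 overlapped across libraries, but Rpl8 lay above Rpl4 within each of the 10 libraries. Ranges also overlapped for each neighbouring pair from Rpl22 down to Rps9 (Rpl22, Rplp0, Rps3, Rpl32, Rpl7, Rps26 and Rps9). No such pair kept the same order in every library, so the order of these neighbours is not set by these data.

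**Figure D1:**
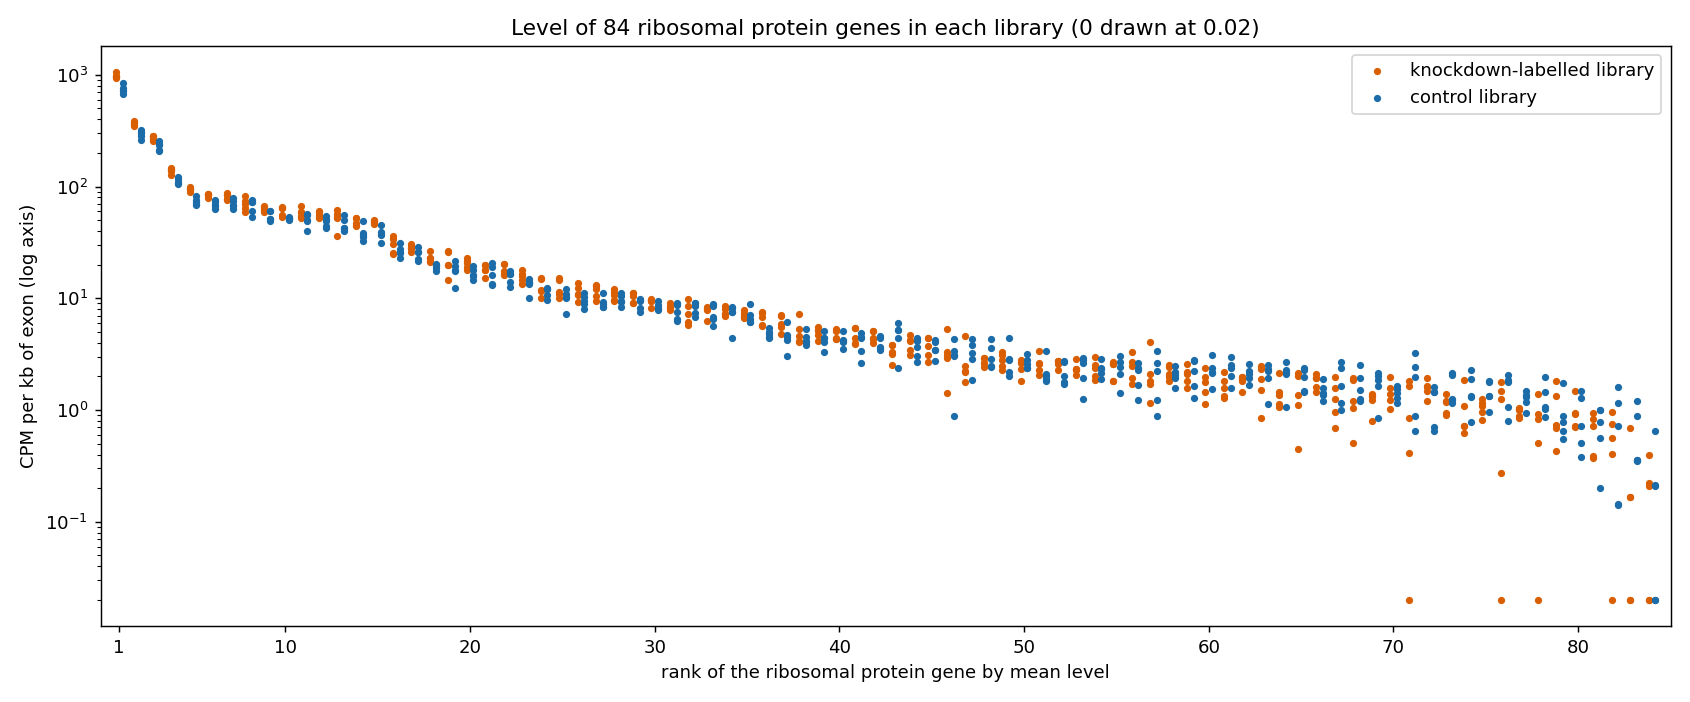
Level of each of the 84 genes (CPM per kilobase of exon, log axis) in each knockdown-labelled (orange) and control (blue) library, by rank of mean level. Rplp1 stands first at a mean of 862.7, Rpl23a last at 0.1908, and 6 members have a library with 0 reads, drawn at 0.02.

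The 2 subunits had like levels, with a median of 4.116 for the 52 large-subunit genes and 4.452 for the 32 small-subunit genes on this scale. The 4 genes with the most reads took 45.3% ± 0.658 of all member reads in the knockdown-labelled libraries and 44.0% ± 0.487 in the control libraries (SD, n = 5 each). Large-subunit genes held 67% of member reads.

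The members' coding sequences were set against all GENCODE M21 transcripts, on both strands, in words of 50 bases (50-mers). The share of a member's coding 50-mers that occur in no other annotated gene is called its unique share here. The first 50 coding bases of 3 members with a high level are shown because this word occurs in no other annotated gene:
Rplp1: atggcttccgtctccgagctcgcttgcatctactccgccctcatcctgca
Rpl8: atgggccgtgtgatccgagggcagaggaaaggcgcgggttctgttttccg
Rpl4: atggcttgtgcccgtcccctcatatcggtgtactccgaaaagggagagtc

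The same stretch of 3 members with a low level, picked because each is found unchanged in other annotated genes, is shown for contrast. This word alone did not separate high from low levels. That of Rplp0, at a level of 76.47, occurs in 3 other genes, and that of Rpl3l, at 1.259, in 0 other genes. That of Rpl23a occurs in 7 other genes, all of them pseudogenes, that of Rpl24 in 3 other genes and that of Rps16 in 1 pseudogene:
Rpl23a: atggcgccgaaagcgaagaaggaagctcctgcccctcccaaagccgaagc
Rpl24: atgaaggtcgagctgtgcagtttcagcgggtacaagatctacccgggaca
Rps16: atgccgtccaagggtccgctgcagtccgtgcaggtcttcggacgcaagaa

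Members with a larger unique share tended to have a higher level. In all, 28 members had no unique coding 50-mer, and their median level was 2.06. The 17 members with a unique share above 0 and under 10% had a median of 3.08, the 24 members from 10% to under 50% a median of 10.4, and the 15 members at 50% or more a median of 49. The last class held 55.3% of all member reads. Spearman's rho between level and unique share was 0.573 over 84 genes, and 0.413 with the whole mRNA in place of its coding part, a description across genes that share libraries and depth.

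The relation had exceptions in both directions. Rplp1 reached the highest level with a unique share of 39.19%. Rpl41, whose coding sequence of 78 bases is the shortest of the members, had no unique coding word but a level of 52.48, with 56.1% of the 50-mers of its whole mRNA unique. The next highest level without a unique coding word was 10.43. In the other direction, Rpl3l, known from striated muscle, and Rpl10l and Rpl39l, known from testis, had unique shares of 100%, 87.58% and 100% and levels of 1.259, 1.002 and 1.392. Of their reads 33.55%, 41.78% and 30.65% were predicted from background.

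The treatment of reads that match several places was not given in the sources used here, and its part in these levels was not tested. Levels of members with near-identical copies are therefore uncertain. Over whole mRNAs, untranslated parts included, 1106 pseudogenes shared a 50-mer with a member and held 36870 reads, against 214574 reads of the members. Of pseudogenes named after members there were 294, with 9038 reads.

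**Figure D2:**
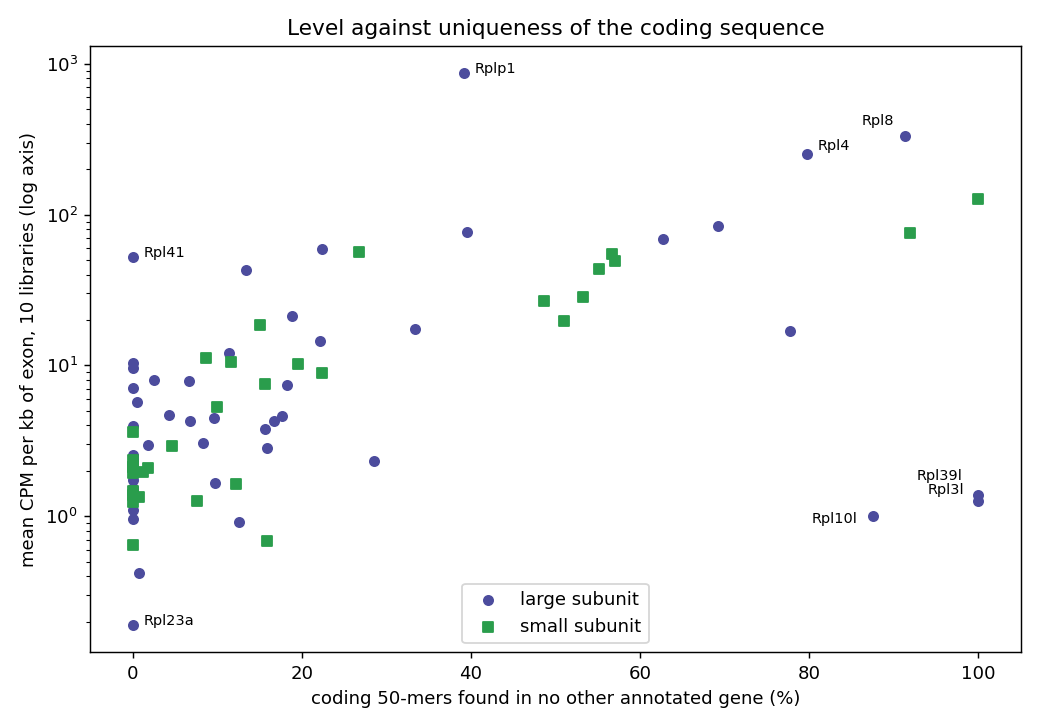
Mean level over 10 libraries (CPM per kilobase of exon, log axis) against the percentage of coding 50-mers found in no other annotated gene, for large-subunit (circles) and small-subunit (squares) members. The 28 members at 0 have a median level of 2.06 and the 15 members at 50% or more one of 49, with Rpl3l, Rpl10l and Rpl39l low at the right.

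Several members have a second, diverged copy in the genome that is itself a gene. Rps27 and Rps27l encode closely related small-subunit proteins, and Rps27l is also known as a p53-induced gene. Their coding sequences are 76.1% identical, and the first 60 coding bases are shown because they differ at 18 positions, set in capitals:
Rps27: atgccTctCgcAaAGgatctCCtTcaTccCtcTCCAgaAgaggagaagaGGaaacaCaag
Rps27l: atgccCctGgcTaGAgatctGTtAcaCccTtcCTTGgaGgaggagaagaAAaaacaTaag

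Rps27l had 26.4, 26, 20.1, 14.5 and 20 CPM per kilobase in the knockdown-labelled libraries and 21.4, 12.5, 17.8, 17.6 and 19.5 in the control libraries. Rps27 had 1.81, 1.16, 2.1, 1.7 and 4.08 in the knockdown-labelled libraries and 2.62, 3.39, 1.23, 0.884 and 2.23 in the control libraries. Rps27l thus lay above Rps27 in all 10 libraries, at means of 19.58 and 2.12. The unique coding share was 50.97% for Rps27l and 0 for Rps27, and the part of this in the gap was not tested. Neither gene differed between the groups by the edgeR quasi-likelihood test (Rps27l log2 fold change 0.26, SE 0.14, adjusted p = 0.1; Rps27 0.08, SE 0.36, adjusted p = 0.854).

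In 5 of the other pairs the gene without the suffix l had the higher mean level. Rpl22, whose loss in mice is known for its effect on T-cell development, stood at 84.29 and Rpl22l1 at 3.768, a ratio of 22.4. The ratio was 3.74 for Rpl3 over Rpl3l, 3.51 for Rpl7 over Rpl7l1, 2.41 for Rpl10 over Rpl10l and 2.03 for Rpl39 over Rpl39l. For Rpl36a over Rpl36al it was 0.48, with levels of 0.9637 and 2.007. Rpl7l1, a nucleolar relative of Rpl7, was the only one of these diverged copies with a level above 10 besides Rps27l. Rps4x, whose relative is not a member, stood at 5.274.

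The question the design asks of these genes is whether they differ between microglia given the targeting gapmers and those given control gapmers. By the edgeR quasi-likelihood test with TMM scaling, 72 of the 84 members had enough reads to be tested and 12, with 9 to 102 reads in all libraries together, had not. Of the 72, 21 rose (29.2%), 0 fell and 51 did not pass an adjusted p of 0.05. Among all 19263 genes tested, 22.9% rose and 31.3% fell. Without adjustment 2 members were lower at p under 0.05, Rpl11 and Rpl27, and DESeq2 called 23 higher and 0 lower. The median log2 fold change was 0.16 for the members and -0.10 for all genes.

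Calls came from both subunits, with 13 of 44 tested large-subunit members and 8 of 28 small-subunit members higher, and medians of 0.16 and 0.17. Over all tested genes 22.9% rose. With a background share under 5%, 66.7% of members and 75.5% of all genes rose. Replicates 1 to 3, on sequencing lane 7, gave 23 higher when tested alone, and replicates 4 and 5, on lane 8, with 2 libraries a group, gave 1 (Rps21). In lane 8 alone, the 21 genes called with all libraries had log2 fold changes from 0.0458 to 0.5085. Their median there was 0.2189, against 0.2689 with all libraries. With all libraries the rises were small. They ran from a log2 fold change of 0.18 for Rps14 to 0.46 for Rpl10a, which is 1.13-fold to 1.37-fold.

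Rplp1 (chr9:61913284-61914542, GRCm38, minus strand) had 476.8, 490.9, 525.9, 485.1 and 468.3 CPM in the knockdown-labelled libraries, against 380, 367, 355, 336.4 and 419.5 CPM in the control libraries. Every knockdown-labelled library lay above every control library, the nearest being control replicate 5. The log2 fold change was 0.40 (SE 0.06, edgeR adjusted p = 5.34e-07). Its partners in the stalk gave 0.27 (SE 0.06, adjusted p = 0.000278) for Rplp0 and 0.13 (SE 0.10, adjusted p = 0.263) for Rplp2.

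Rpl22 (chr4:152325742-152334071, plus strand) had 279.6, 277.7, 288.1, 262 and 271.7 CPM in the knockdown-labelled libraries, against 222.2, 210.3, 201.7, 200.9 and 239.3 CPM in the control libraries. Here too the groups did not overlap, and the log2 fold change was 0.36 (SE 0.06, edgeR adjusted p = 2.9e-06). Its relative Rpl22l1 averaged 7.827 ± 1.24 CPM in the knockdown-labelled libraries and 7.164 ± 1.43 CPM in the control libraries (SD, n = 5 each; adjusted p = 0.615 by edgeR).

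Rpl10a (chr17:28328471-28331033, plus strand), the protein of the mobile L1 stalk, had 18.34, 14.13, 17.89, 13.62 and 16.52 CPM in the knockdown-labelled libraries, against 10.74, 12.05, 11.59, 11.06 and 13.22 CPM in the control libraries. The groups did not overlap, though knockdown-labelled replicate 4 and control replicate 5 lay close together. It had the highest fold change of the members called higher, at 0.46 (SE 0.13, edgeR adjusted p = 0.00353), from only 773 reads and with a unique coding share of 0.5%. Rpl27a, a large-subunit core protein, had 33.84, 29.29, 36.63, 26.36 and 35.77 CPM in the knockdown-labelled libraries, against 25.49, 24.52, 23, 23.23 and 31.07 CPM in the control libraries. These groups overlapped through control replicate 5, and the log2 fold change was 0.35 (SE 0.10, edgeR adjusted p = 0.00237).

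Rpl8 and Rpl4 also rose. Rpl8 averaged 498.7 ± 20.6 CPM in the knockdown-labelled libraries and 401.4 ± 30.3 CPM in the control libraries (SD, n = 5 each). Its fold change was 0.31 on the log2 scale (SE 0.06, edgeR adjusted p = 2.05e-05). Rpl4 averaged 549.1 ± 25.1 CPM in the knockdown-labelled libraries and 464 ± 42 CPM in the control libraries (SD, n = 5 each). Its log2 fold change was 0.24 (SE 0.06, edgeR adjusted p = 0.000593). The groups were apart for Rpl8 and met for Rpl4, in which control replicate 5 lay within the knockdown-labelled range.

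In 9 of the 72 tested members (12.5%) every knockdown-labelled library lay above every control library, among them Rplp1, Rpl8, Rpl22, Rplp0, Rps26, Rpl23, Rpl37 and Rpl10a. This was so for 12.6% of all genes tested. The reverse held for 0 members and for 14.2% of all genes.

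Rpl32, a large-subunit protein, was the one member among the 10 with the highest levels that did not pass the test. It had 62.58, 71.16, 79.83, 56.62 and 67.79 CPM in the knockdown-labelled libraries, against 69.93, 58.81, 73.61, 51.98 and 69.47 CPM in the control libraries. The groups overlapped along most of their range, and the log2 fold change was 0.06 (SE 0.08, edgeR adjusted p = 0.548). With 3673 reads and a background share of 0.5996%, it had the smallest fold change among the 30 members with a share under 5%.

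**Figure D3:**
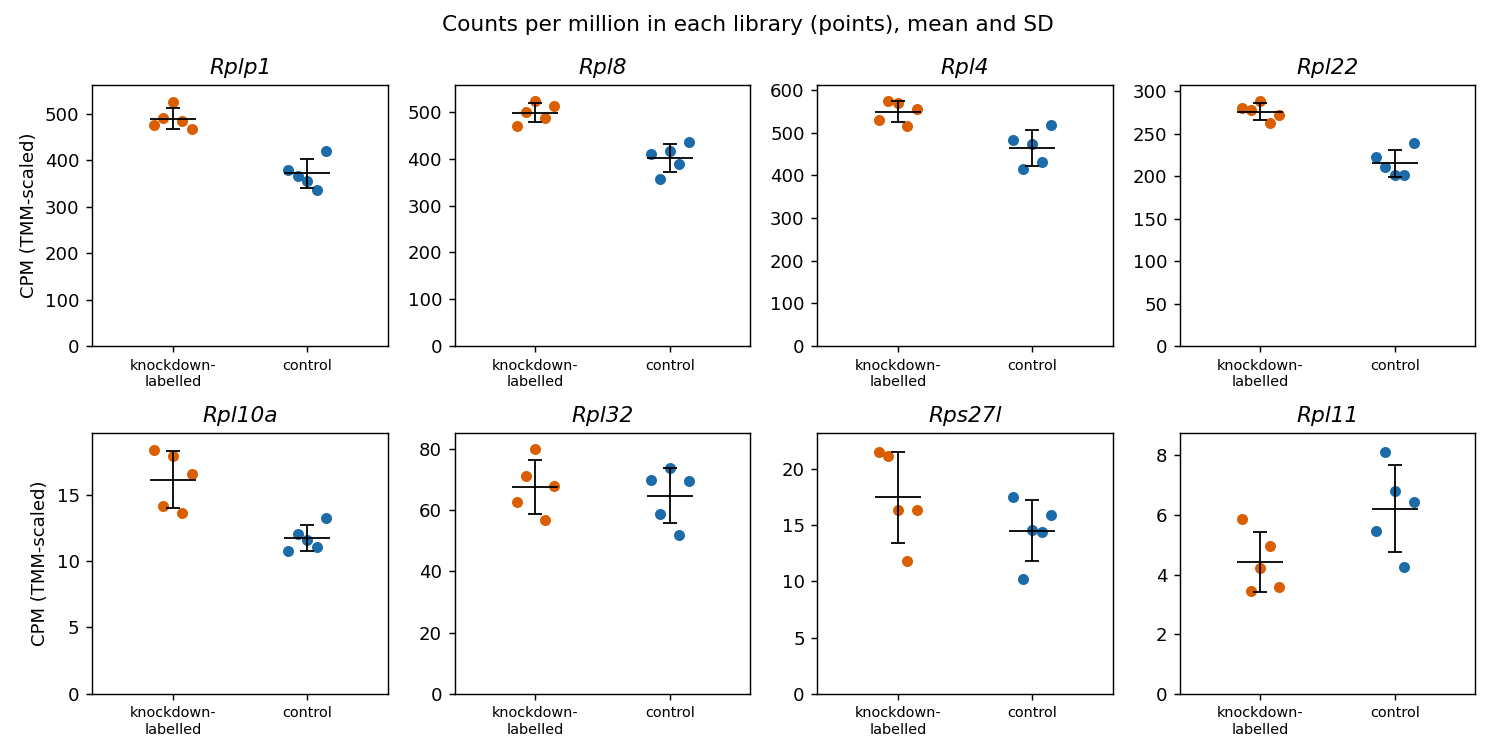
TMM-scaled CPM of 8 members in each library (points), with mean and SD, knockdown-labelled left and control right. Rplp1, Rpl8, Rpl22 and Rpl10a are apart between groups, Rpl4, Rps27l and Rpl11 overlap in part, and Rpl32 overlaps along most of its range.

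Members known from disease and signalling were looked at by name. Rps14, whose loss on the deleted chromosome arm is tied to the anaemia of 5q- syndrome in humans, averaged 67.78 ± 4.26 CPM in the knockdown-labelled libraries and 59.81 ± 6.84 CPM in the control libraries (SD, n = 5 each; log2 fold change 0.18, SE 0.07, edgeR adjusted p = 0.0291). That call was lost when knockdown-labelled replicate 5, control replicate 1 or control replicate 4 was left out. Rps6, the substrate of the S6 kinases, averaged 2.884 ± 1.04 CPM in the knockdown-labelled libraries and 3.23 ± 0.877 CPM in the control libraries, with an edgeR adjusted p of 0.671 (n = 5 each). Rpl5 and Rpl11 join 5S rRNA in the particle that binds Mdm2 and lets p53 accumulate.

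Rpl11 had 5.861, 3.446, 4.22, 4.954 and 3.577 CPM in the knockdown-labelled libraries, against 5.463, 8.104, 6.809, 4.24 and 6.429 CPM in the control libraries. The groups overlapped, and its log2 fold change of -0.49 (SE 0.24) did not pass the test (edgeR adjusted p = 0.0732), with a background share of 21.27%. Rpl27 gave -0.48 (SE 0.23, adjusted p = 0.0677), and Rpl5 gave 0.04 (SE 0.23, adjusted p = 0.892). The calls for Rpl11 and Rpl27 depended on the scaling: both were called lower with upper-quartile scaling, library totals and the stricter filter. With background density as a covariate Rpl11 gave 0.0387, in a fit that could not well separate that density from the group.

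The 4 tested members with the lowest levels were Rps13, Rpl3l, Rps10 and Rpl21, at 1.346, 1.259, 1.254 and 1.103 CPM per kilobase. Their log2 fold changes were -0.48, -0.61, -0.45 and -0.38, and none passed the test by edgeR (adjusted p = 0.14, 0.152, 0.198 and 0.231). Between 31.08% and 37.75% of their reads were predicted from background.

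The fold change of a member went with its background share. Of the 15 members with a share under 1%, 13 rose and 0 fell, where 87.5% of all genes in that range rose and 0.469% fell. Of the 30 members under 5%, 20 rose (66.7%) and 0 fell, with a median of 0.23 on the log2 scale. Among all genes in that range 75.5% rose and 0.486% fell, with a median of 0.24. Of the 28 tested members with a share of 5% to under 20%, Rpl10a alone rose, and the median was 0.08, against 0.07 for all genes of that range. The 14 tested members at 20% or more gave 0 calls in either direction and a median of -0.38, where all genes from 20% to under 40% had a median of -0.58. The shares of all genes called within the ranges at 5% or more are not reported here. Over all tested genes of any share, 22.9% rose and 31.3% fell, and the median SE of members at 5% or more was 0.233. The counts of calls in these ranges are therefore not read as a result about the members. Spearman's rho between fold change and background share was -0.63 over the 72 members, a description, since both come from the same counts.

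**Figure D4:**
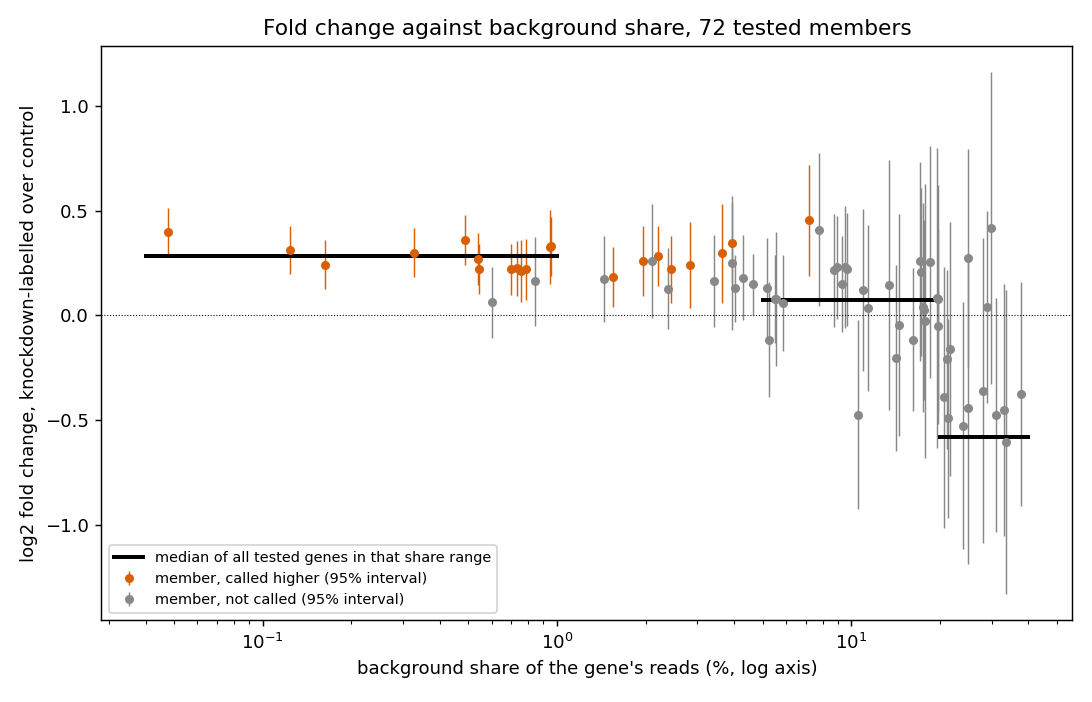
Log2 fold change, knockdown-labelled over control, of the 72 tested members (points, 95% intervals) against the background share of their reads (log axis), with calls in orange and bars at the median of all tested genes in 3 ranges of share. The members' medians were 0.23 under 5% and -0.38 at 20% or more, and the bars fall in the same order.

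The rise of the members was no longer seen when the libraries were scaled on genes with a share under 5%. In that fit the median over the 30 members under 5% was -0.01 on the log2 scale, and 1 rose and 0 fell, where 2.18% of 4729 genes rose and 1.88% fell. At an unadjusted p under 0.05, 3 members were higher and 1 was lower. Rplp1 was the member that rose, by 0.15 (SE 0.04, edgeR adjusted p = 0.00685), a 1.11-fold difference that ranked 30th of the 103 genes called higher. Rpl22 gave 0.11 (adjusted p = 0.0604) and Rpl32 gave the lowest value, -0.18 (adjusted p = 0.137).

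With the predicted background reads also subtracted, 0 members rose and 0 fell by the edgeR test, where 0.719% of genes rose and 1.04% fell. At an unadjusted p under 0.05, 2 were higher and 1 was lower. Rplp1 then gave 0.12 (adjusted p = 0.0667). The range over the 30 members was -0.21 for Rpl32 to 0.13 for Rpl27a. The direction of the family therefore depended on the scaling: upper-quartile scaling gave the members a median of 0.02 and library totals alone gave -0.04, where the median of all genes was -0.24 and -0.30.

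**Figure D5:**
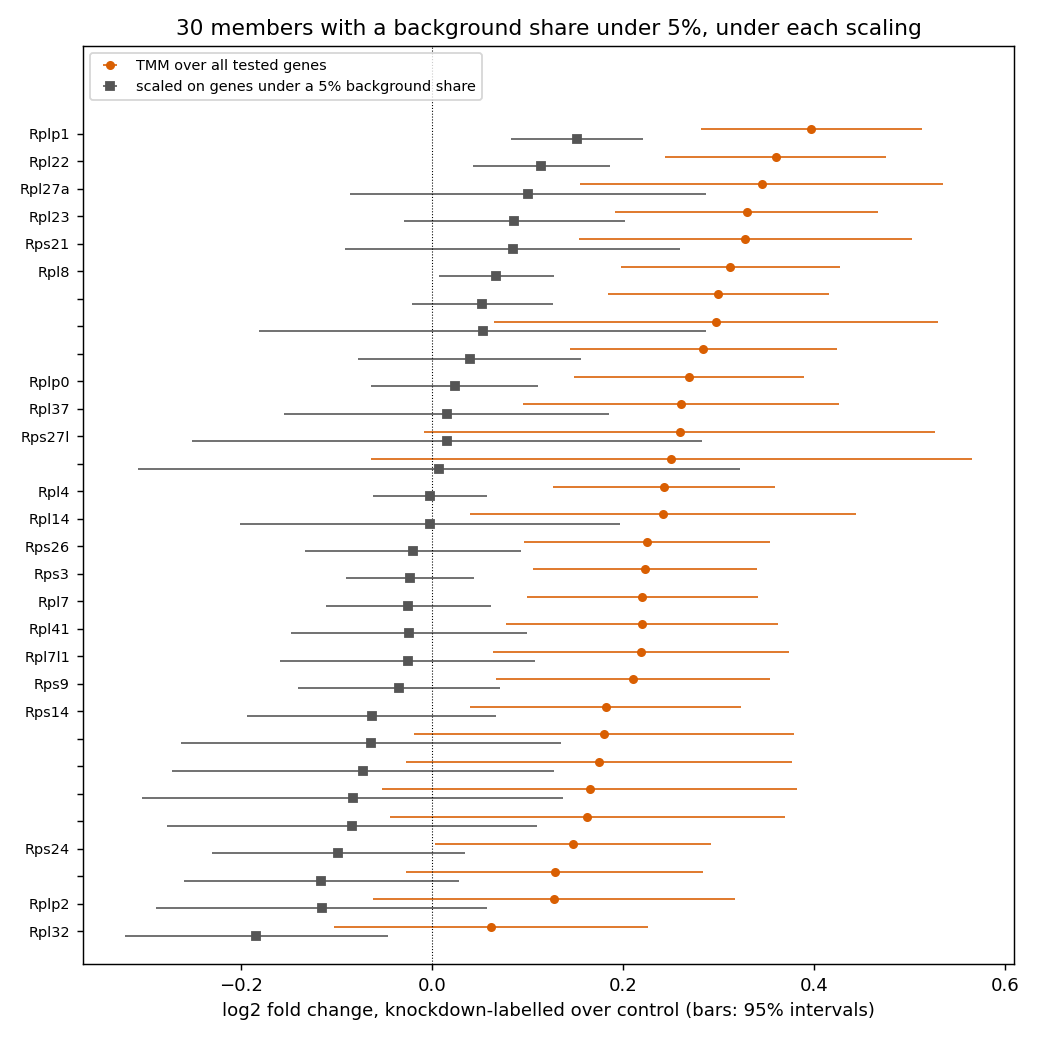
Log2 fold change, knockdown-labelled over control, of the 30 members with a background share under 5%, with TMM over all tested genes (orange circles) and scaled on genes under that share (grey squares); bars are 95% intervals, and members that the text describes are labelled. With the first scaling all 30 lie above 0, and with the second their median is -0.01, Rplp1 being highest at 0.15 and Rpl32 lowest at -0.18.

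The genes around the ribosome gave the same contrast between scalings. Their counts stand beside those of all genes: with TMM over all genes, 22.9% of all tested genes rose and 31.3% fell. Among genes with a background share under 5%, 75.5% rose and 0.486% fell in that fit. Scaled on genes under that share, 2.18% rose and 1.88% fell. Of 16 mRNAs for elongation factors and other known TOP mRNAs, 12 rose and 0 fell with TMM over all genes (edgeR, median log2 fold change 0.25), among them Eef1b2 at 0.33 (adjusted p = 1.31e-05), Pabpc1, the poly(A)-binding protein, at 0.33 (adjusted p = 8.35e-06) and Nap1l1 at 0.32 (adjusted p = 7.97e-05). Of 29 genes of ribosome biogenesis, 17 rose and 0 fell (median 0.22), and the smallest p was that of Ncl, which encodes nucleolin, at 0.35 (adjusted p = 4.01e-06). Scaled on genes under a 5% share, 0 of 14 and 1 of 15 tested genes of these lists rose and 0 fell, and Ncl was the one that rose, by 0.10 (adjusted p = 0.0209).

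Among 78 genes for mitochondrial ribosomal proteins, which build a separate ribosome, 76 were tested, 22 rose and 1 fell (edgeR, median 0.16). For this list and those that follow, the shares over all genes were again 22.9% higher, and 75.5% higher among genes under a 5% background share. Mrps25 gave 0.40 (adjusted p = 3.8e-05), and the one that fell, Mrpl23, gave -0.65 (adjusted p = 0.0499) with a background share of 56.4%. Scaled on genes under a 5% share, 0 of 36 rose or fell. Of 13 genes of mTOR and Myc control, 6 rose and 0 fell, including Larp1, the TOP mRNA-binding protein, at 0.28 (adjusted p = 0.000163), and of 8 genes of p53 surveillance 4 rose and 0 fell, including Pmaip1 at 0.31 (adjusted p = 0.000108). Scaled on genes under a 5% share, 0 of 8 and 0 of 5 tested genes of these 2 lists rose, and 1 fell, Rptor, a component of mTOR complex 1, at -0.18 (adjusted p = 0.0175). Rack1, a ribosomal scaffold outside the symbol rule, gave 0.28 (adjusted p = 7.39e-05), and Fau 0.23 (adjusted p = 0.256).

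Markers of cell types moved with the groups as well. With TMM over all genes, 9 of 9 microglial markers rose, while 4 of 4 tested neuronal and 4 of 4 tested fibroblast and mural markers fell by the edgeR test. Of all genes under a 5% background share 75.5% rose in that fit, and 8 of the 9 microglial markers were under it. Scaled on genes under that share, 0 of those 8 rose or fell (median 0.03, adjusted p = 0.228 to 0.951). The background share was 45.4% to 95.3% for the neuronal markers that fell and 26.8% to 103% for the fibroblast and mural markers that fell, so they were not in the second fit. The summed neuronal markers were 15 to 26.1 CPM in the knockdown-labelled libraries and 31.3 to 49 CPM in the control libraries, and the summed fibroblast and mural markers 14 to 25.3 CPM in the knockdown-labelled libraries and 29.1 to 39.1 CPM in the control libraries. Of 6 astrocyte markers 2 rose and 2 fell, of 5 tested oligodendrocyte-lineage markers 0 rose and 2 fell, and of 3 tested endothelial markers 1 rose and 2 fell. Their summed levels overlapped between the groups, and no marker of any list was at 0 in every library. The part of these cells, and of background, in the rise of the ribosomal protein genes was not tested, and in bulk RNA fewer cells of a type and less RNA per cell cannot be told apart.

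Promoter sequence from RefSeq (GRCm38.p6, 250 bases before to 50 after each start) was matched by symbol for 64 members. A pyrimidine run, counted as C followed by 5 or more C or T within 10 bases of the start, was present in 46.9% of them, against 19% of 27025 promoters of all genes. A run that is transcribed from its first base would be the DNA counterpart of the TOP motif. Some counted runs, such as those of Rps27l and Rpl39l, end before the annotated start, so 46.9% is not a rate of TOP motifs. Shown are 4 start windows of 30 bases in which the run, in capitals, spans the annotated start.
Rps6 (chr4:86857348-86857377, minus strand): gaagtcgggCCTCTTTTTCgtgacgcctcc
Rps27 (chr3:90213629-90213658, minus strand): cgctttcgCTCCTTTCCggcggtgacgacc
Rpl28 (chr7:4792955-4792984, plus strand): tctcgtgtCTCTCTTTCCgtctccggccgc
Rps18 (chr17:33955646-33955675, minus strand): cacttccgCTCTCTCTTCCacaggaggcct

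Over the 300 bases, both strands counted, the ETS-family core CCGGAAG was found in 39.1% of member promoters, against 9.21% of all promoters, and the Sp1 box GGGCGG in 60.9%, against 36.2%. The YY1 motif AAGATGGC was in 7.81%, against 2.88%, the E-box CACGTG in 7.81%, against 7.23%, and the TATA box TATAAA in 9.38%, against 14.2%. A match describes these letters only, and these motifs were not related to the fold changes.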

How the data were processed

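The authors deposited 1 table of whole-number read counts per gene for each of the 10 libraries, with no normalization visible in the values, on GRCm38 (mm10) after demultiplexing with bcl2fastq, per the submitters' processing notes. The library kit was named in the labels' protocols. The aligner, counting program, strand setting and treatment of reads with several matches were not given in the sources used here. Reads of overlapping or antisense genes and of near-identical copies therefore could not be told apart. Gene names, coordinates and exon lengths were taken from GENCODE M21, which held 55230 of the genes. The 241 unmatched genes held 0.0107% of reads, and 92 spike-in entries with 0 to 2 reads per library were left out.

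Counts were filtered by group (filterByExpr), scaled with TMM and tested over all genes with edgeR 4.0.16 (R 4.3.3, robust quasi-likelihood fit with no term besides group), and p-values were adjusted by Benjamini-Hochberg, with a threshold of 0.05. CPM and levels per kilobase were computed from the counts. Other fits used DESeq2 1.42.0, limma-voom (limma 3.58.1), other scalings and filters, background density as a covariate, the replicate block, lane, and each library left out. By the deposited file names, lane 7 held replicates 1 to 3 and lane 8 replicates 4 and 5 of both groups. The edgeR test was checked on simulated counts. Words of 50 bases were compared with the GENCODE M21 transcripts on both strands. Figures were drawn with matplotlib 3.10.9.

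The members, the gene lists and the background measure were chosen with earlier results of these data known. Members named are the 4 highest and 4 lowest tested levels, paralog pairs, the 4 largest changes among calls, calls of the low-background fit, Rps14, Rps6, Rpl5 and Rpl11, members in which 1 library stood apart and members in a count of 5 or fewer. From each of the other lists up to 3 genes with the smallest p are named. Rpl32, Rpl41, Rplp0, Rplp2, Fau, Mrpl23, Rptor, members whose groups did not overlap, neighbours in the order of levels and those whose sequences are shown were added after their values were seen. Some members are not reported here by name.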

Additional observations from a re-analysis of the deposited data

Results flagged for a closer look

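In groups of 5 libraries, a library was singled out where its gap to the nearest other, divided by the range of the group, was above Dixon's 95% value, which chance alone gives in about 1 in 20 groups. The rule was applied to each of the 72 tested members in both groups. It gave 4 cases, fewer than that rate alone would give. Among the knockdown-labelled libraries, replicate 4 was low for Rps24, at 50.8 CPM with the others from 59.1 to 62, and for Rps15a, at 38.9 CPM with the others from 49 to 52.8. Among the control libraries, replicate 2, which had the highest background, was low for Rpl37a, at 6.23 CPM with the others from 10.5 to 11.8, and high for Rpl9, at 10.4 CPM with the others from 5.64 to 6.45. None of these 4 genes passed the edgeR test between the groups (adjusted p = 0.0821 for Rps24, 0.533 for Rps15a, 0.699 for Rpl37a and 0.384 for Rpl9).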

How the results depend on the processing

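The count of 21 members higher and 0 lower was the same with TMM factors computed without the ribosomal protein genes and with lane as a covariate, limma-voom gave 21 and 0, and DESeq2 23 and 0. With the replicate number as a block the count was 21 higher and 0 lower. The deviations of same-numbered libraries correlated at -0.098, -0.213, 0.013, 0.152 and 0.16, so the numbers were not taken as pairs. The count was 7 higher and 2 lower (Rpl11, Rpl27) with upper-quartile scaling, 4 and 3 (also Rpl28) with library totals, 1 and 0 when scaled on genes under a 5% background share, 0 and 0 after subtraction or with background density as a covariate (there 4 higher and 6 lower at an unadjusted p under 0.05), 34 and 0 without a filter, 9 and 2 with the stricter filter of 5 CPM in 5 libraries, 23 and 0 in lane 7 alone and 1 (Rps21) and 0 in lane 8 alone, which has 2 libraries a group. Leaving out each library in turn gave 19 to 27 higher and 0 to 2 lower, the lower calls being Rpl27, Rpl11, Rpl28 and Rpl3l. Among the 21 genes, Rps14 was no longer called without knockdown-labelled replicate 5 or without control replicate 1 or 4, Rpl14 without knockdown-labelled replicate 2 or 3 or control replicate 2 or 3, and Rpl7l1 without knockdown-labelled replicate 3 or control replicate 2 or 4. Background density did not overlap between the groups (0.188 to 0.3432 in the knockdown-labelled and 0.4245 to 0.8165 in the control libraries). The fit with it as a covariate therefore could not well separate background from group. Causes were not tested.

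Log2 fold changes that turned round in sign were as follows. Scaled on genes under a 5% share, they were -0.0021 for Rpl4, -0.0249 for Rpl7, -0.0255 for Rpl7l1, -0.0634 for Rps14 and -0.0985 for Rps24, and after subtraction -0.0301, -0.0461, -0.0239, -0.0748 and -0.0719 in the same order of genes. With the covariate they were -0.0701 for Rpl4, 0.0425 for Rps13, 0.83 for Rpl3l, 0.10 for Rpl21, -0.36 for Rpl3, -0.27 for Rpl7l1, -0.19 for Rpl22l1, -0.16 for Rps27, -0.21 for Rps27l, -0.10 for Rpl27a, 0.87 for Rps6, -0.12 for Rpl5, 0.0387 for Rpl11, -0.0753 for Rps24, -0.50 for Rps15a and -0.23 for Rpl37a. The values of the covariate fit are not read as results about these genes, since the covariate and the group could not be well separated. With upper-quartile scaling they were -0.0214 for Rpl22l1, -0.0642 for Rps27, -0.11 for Rpl5, -0.0671 for Rps15a and -0.0649 for Rpl37a. With library totals they were -0.0784 for Rpl22l1, -0.12 for Rps27, -0.0226 for Rps14, -0.17 for Rpl5, -0.0577 for Rps24, -0.13 for Rps15a, -0.12 for Rpl37a and -0.0016 for Rpl9. Rpl39 was 0.0197 with DESeq2 and 0.0783 without a filter. With the stricter filter Rpl5 was -0.0808, Rps15a -0.0392 and Rpl37a -0.037. In lane 7 Rps27 was -0.47 and Rpl5 -0.0091, and in lane 8 Rps27l was -0.0787, Rps6 0.50, Rps15a -0.0538 and Rpl37a -0.10. Leaving out 1 library at a time moved Rpl39 from -0.13 to 0.18, Rps27 from -0.25 to 0.33, Rps6 from -0.29 to 0.0407, Rpl5 from -0.085 to 0.16 and Rpl37a from -0.037 to 0.15.

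The median SE of the log2 fold change was 0.0713 for members called and 0.214 for the others, which limits what could be detected in the latter. After the data were seen, the relation of level to uniqueness was also computed over the whole mRNA in other ways. Spearman's rho was 0.479 with 100-mers, against 0.413 with 50-mers, and 0.337 with 50-mers and levels per mRNA length.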
